A study of Mus musculus with 4 samples.

Results

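Fatty acid oxidation and PPAR target genes were followed in mouse aorta across 4 groups of mice. The members are 33 genes chosen by name for mitochondrial and peroxisomal fatty acid oxidation or as targets of the peroxisome proliferator-activated receptors (PPARs), and every probe set annotated to a member gene alone was taken. Of the 33 genes, 31 had such a probe set, 54 probe sets in all of the 45101 on the array. All 31 passed the expression filter through their brightest probe set, and they are 31 of 11715 genes compared. Cpt1b and Ucp2 had no probe set annotated to them alone and are not analysed here.

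The groups were Ath29 mice on Western diet, Ath29 mice on chow, B6 mice on Western diet and B6 mice on chow, with 1 array each. The Ath29 line is a C57BL/6 congenic, a strain bred to hold a stretch of foreign chromosome, here at the chromosome 9 locus Ath29, and its disease label is resistance to atherosclerosis. B6 mice are C57BL/6 animals with the apoE-/- genotype, labelled as having atherosclerosis, and serve as controls; the labels used here give that genotype for the controls only. Weaning was at 3 weeks of age onto chow, and the Western diet, where given, began at 4 weeks and lasted 2 weeks. The labels do not say how many animals gave the RNA of an array. Because each group has 1 array, the differences carry no error estimate and describe these arrays only.

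Fatty acids enter mitochondria as carnitine esters and are shortened there in repeated rounds of dehydrogenation, hydration, a further dehydrogenation and thiolysis. Peroxisomes shorten very long chains by a related route. PPARs are nuclear receptors that bind fatty acids and their derivatives and drive transcription of many genes of both routes. The pathway is most active in heart, liver, oxidative muscle and brown fat, and the fat that surrounds the mouse thoracic aorta has brown fat character.

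PPARs bind DNA together with RXR at direct repeats of a hexamer, AGGTCA, spaced by 1 base. The windows from 250 bases before to 50 after the transcription start were searched on both strands for this hexamer, for the strict repeat (2 copies of AGGTCA with 1 base between them) and for a looser repeat that takes any base at position 4 of each copy (AGGNCA). RefSeq promoter sequences of assembly GRCm38.p6 were found for 28 of the 33 genes, 31 windows in all. The hexamer was present in 8 of the 31 windows, belonging to 7 genes, against 16.3% of all 32851 windows. Neither repeat was found in a member window, and the looser repeat is in 0.381% of all windows and the strict repeat in 0.0396%. The hexamer sites, which also occur inside either repeat, are shown with up to 10 bases on either side, read along the strand that carries AGGTCA, with the hexamer in capitals. These are letters in a window and not known binding sites.
Acadm, chr3:153944877-153944893 (plus strand): cggagcccgaAGGTCAc
Acadvl, chr11:70015500-70015525 (minus strand): ggatcaccctAGGTCAggtagaatac
Cpt1a, chr19:3323197-3323222 (minus strand): tgcggggaggAGGTCAgtaaggaaac
Echs1, chr7:140116489-140116514 (minus strand): cagcccgctcAGGTCAcgggtccacc
Plin2, chr4:86670262-86670287 (plus strand): tgtctgacttAGGTCAggggtcctga
Plin5, chr17:56117270-56117295 (minus strand): atgagccctgAGGTCAgcgtccctgt
Plin5, chr17:56117703-56117728 (minus strand): tcctagtctgAGGTCAgccatggtga
Ucp3, chr7:100472832-100472857 (plus strand): aaagagccccAGGTCAcggaagctaa
Ucp3, chr7:100472937-100472962 (plus strand): attaggtttcAGGTCAgctggtgcac

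The whole windows of Ucp3, Ehhadh and Acaa1b, the 3 members with the largest strain by diet differences (the diet difference in Ath29 mice minus that in B6 mice), are shown next, read along the gene's own strand, with hexamers in capitals. Ucp3 has 2 hexamers, both on its own strand, which begin 149 and 44 bases before the start, while Ehhadh and Acaa1b have none. Angptl4, next by the same measure, is named only.
Ucp3 promoter, chr7:100472741-100473040 (plus strand): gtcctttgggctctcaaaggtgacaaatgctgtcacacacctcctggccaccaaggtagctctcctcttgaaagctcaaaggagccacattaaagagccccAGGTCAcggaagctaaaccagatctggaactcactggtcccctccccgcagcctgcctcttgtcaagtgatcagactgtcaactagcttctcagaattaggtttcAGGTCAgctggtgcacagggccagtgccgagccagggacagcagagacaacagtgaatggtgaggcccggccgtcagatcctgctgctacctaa
Ehhadh promoter, chr16:21787785-21788084 (minus strand): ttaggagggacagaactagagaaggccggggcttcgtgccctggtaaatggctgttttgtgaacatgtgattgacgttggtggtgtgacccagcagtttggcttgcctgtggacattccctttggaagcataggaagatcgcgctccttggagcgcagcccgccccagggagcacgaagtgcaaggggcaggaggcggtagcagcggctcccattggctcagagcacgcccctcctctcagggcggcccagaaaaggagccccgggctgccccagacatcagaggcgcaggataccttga
Acaa1b promoter, chr9:119157044-119157343 (minus strand): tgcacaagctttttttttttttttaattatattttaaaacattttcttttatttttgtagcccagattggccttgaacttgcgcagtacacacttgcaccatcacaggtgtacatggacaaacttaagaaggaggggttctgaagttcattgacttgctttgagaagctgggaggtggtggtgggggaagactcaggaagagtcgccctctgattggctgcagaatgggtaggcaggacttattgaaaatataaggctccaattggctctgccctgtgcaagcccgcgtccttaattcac

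Most members shared the same order of the 4 arrays. Their signal was highest in B6 mice on Western diet, next in Ath29 mice on chow, then in Ath29 mice on Western diet, and lowest in B6 mice on chow. That exact order was seen in 24 of the 31 members, against 7.54% of all genes compared. In 29 members B6 Western was the highest array (26.4% of all genes), and in 28 B6 chow was the lowest (22.6%). The median log2 intensity of the 31 members was 10.32 in Ath29 Western, 10.54 in Ath29 chow, 11.25 in B6 Western and 9.98 in B6 chow. The order was tighter in some roles than others: it held in 7 of 7 genes of the dehydrogenases and electron transfer, but in 4 of 8 of the genes for uptake, droplets, uncoupling and fuel switch. In bulk tissue, fewer cells of a type and less RNA per cell cannot be told apart.

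**Figure D1:**
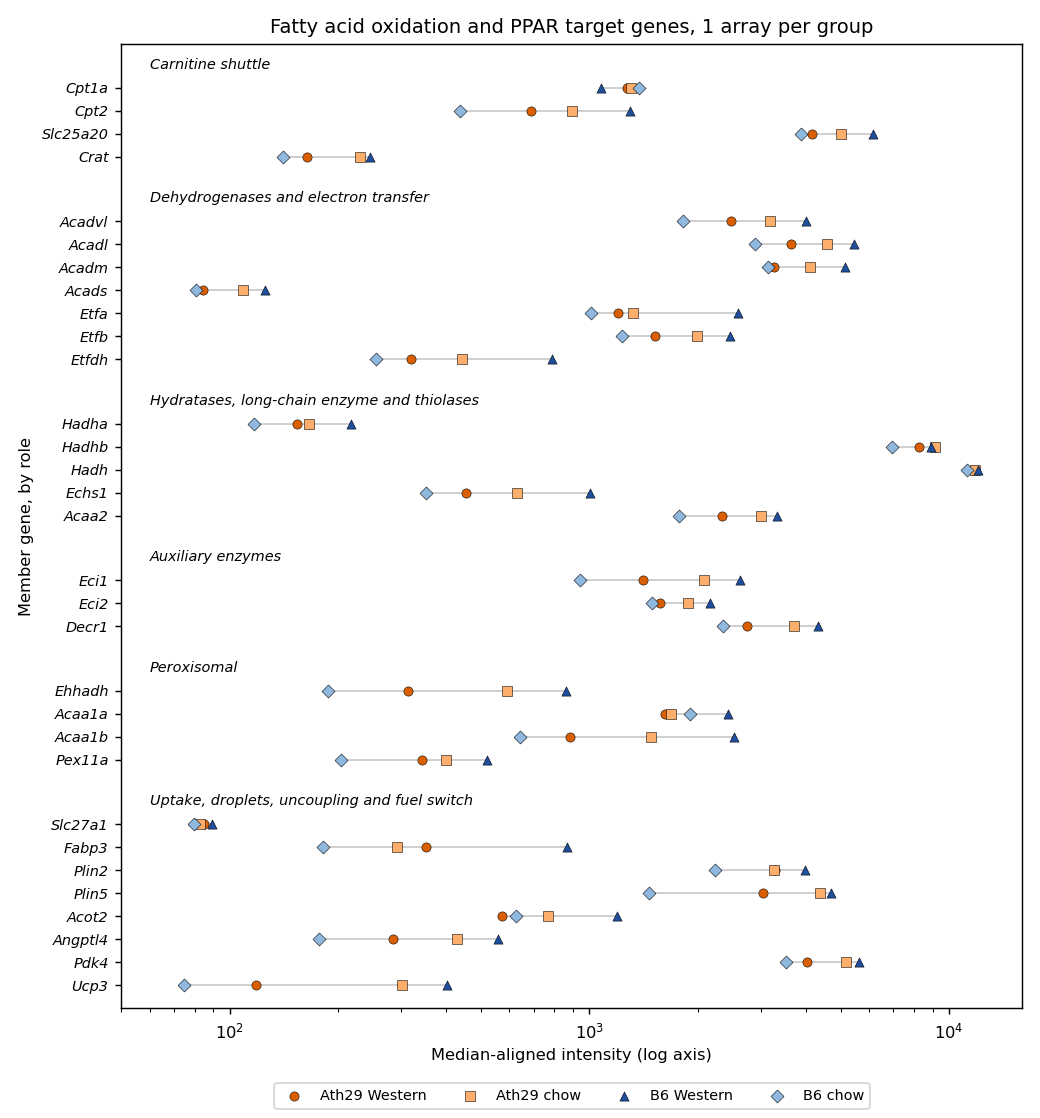
Median-aligned intensity (log axis) of the brightest probe set of each of the 31 members, grouped by role, with 1 point for each of the 4 arrays (Ath29 Western, Ath29 chow, B6 Western, B6 chow). B6 Western is the rightmost point in 29 members and B6 chow the leftmost in 28; Hadh at the bright end and Slc27a1 at the dim end show almost no spread.

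The 4 arrays give 4 comparisons, and each array enters a pair of them, so the comparisons are not independent. Differences are log2 of median-aligned intensities, so that 1 is a 2-fold difference. Ath29 mice on Western diet had lower signal than B6 mice on Western diet in 30 of 31 members (49.3% of all genes), with a median difference of -0.63 against 0.00 over all genes. At least 2-fold lower were 8 members, against 2.03% of all genes, and none was at least 2-fold higher (0.845% of all genes). On chow the direction was opposite. There Ath29 mice had higher signal than B6 mice in 29 of 31 members (41.1% of all genes), with a median of 0.66 against -0.08. At least 2-fold higher were 7 members, against 2.17% of all genes, and none was at least 2-fold lower (1.94%).

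Within Ath29 mice, 28 of 31 members were lower on Western diet than on chow (43.8% of all genes), with a median of -0.36 against 0.04. The differences there were small: 1 member, Ucp3, was at least 2-fold lower, against 0.854% of all genes, and none was at least 2-fold higher (1.32%). Within B6 mice, Western diet went with higher signal than chow in 30 of 31 members (43.4% of all genes), with a median of 0.91 against -0.06. Of these, 14 were at least 2-fold higher, against 4.11% of all genes, and none was at least 2-fold lower (1.17%). The strain by diet difference, that is the diet difference in Ath29 mice minus that in B6 mice, had a median of -1.31 over the members and 0.11 over all genes, and 23 members lay at -1 or below against 6.77% of all genes, with none at 1 or above (4.95%).

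At 1.5-fold, 17 members were lower in Ath29 than in B6 mice on Western diet (7.89% of all genes) and 17 higher on chow (7.28%). Western diet went with at least 1.5-fold lower signal than chow in 4 members in Ath29 mice (4.35%) and with higher signal in 25 members in B6 mice (9.95%). In 29 members Ath29 was below B6 on Western diet and above it on chow, against 22.5% of all genes. In 27 members Western diet was below chow in Ath29 mice and above it in B6 mice, against 24.0% of all genes.

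Strain and diet were tested together with limma in an additive model. Its error is estimated from the strain by diet difference. In 29 of the 31 members Ath29 was below B6 on Western diet and above it on chow. In 27 Western diet was below chow in Ath29 mice and above it in B6 mice. Such a change of sign shrinks the fitted effect and enlarges its error. The median fitted effect over the members was 0.01 for strain and 0.31 for diet. The fit was thus poorly able to call these members, and no conclusion about them is drawn from it. It called 0 of 11715 genes for strain and 0 for diet at an adjusted p under 0.05 (0% each), with 304 and 294 genes at an unadjusted p under 0.05. Of the 31 members limma called 0 for strain and 0 for diet, and at an unadjusted p under 0.05 there were 0 for strain and 1 for diet, Fabp3.

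**Figure D2:**
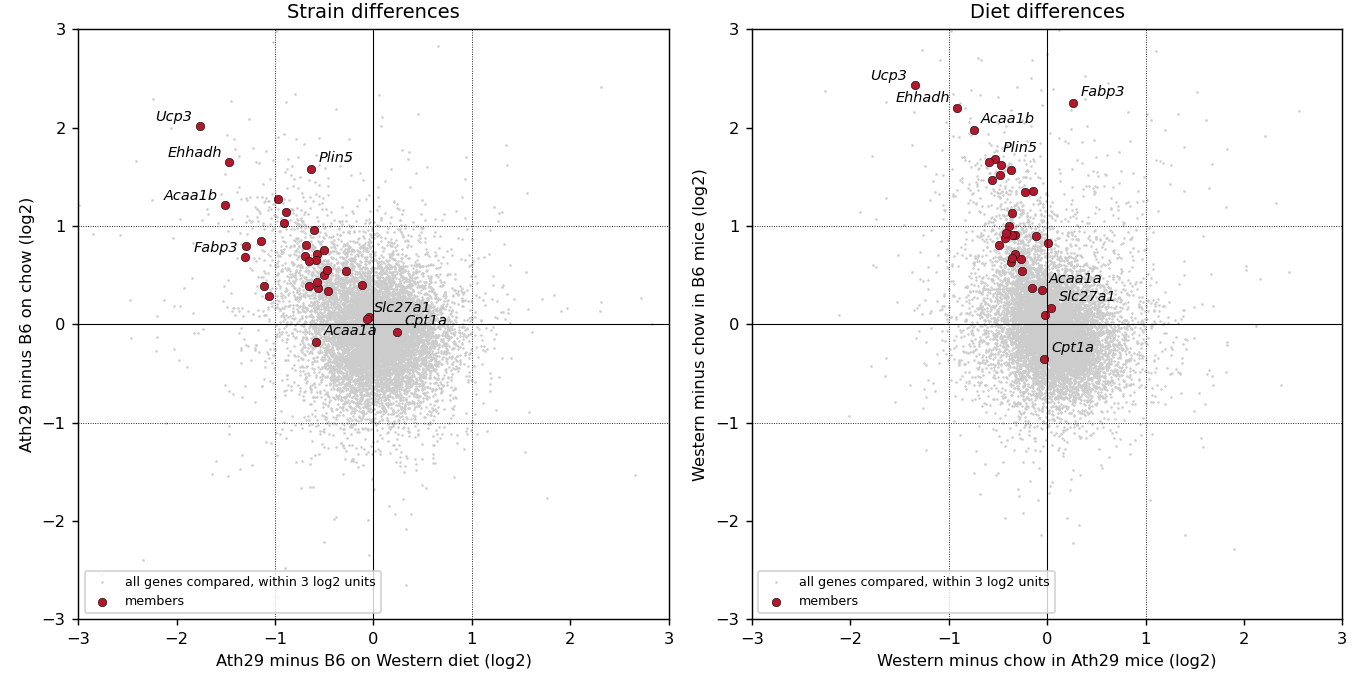
Left, the log2 difference Ath29 minus B6 on Western diet (x) against that on chow (y); right, Western minus chow in Ath29 mice (x) against that in B6 mice (y). Red points are the 31 members, grey points all genes compared within 3 log2 units, dotted lines mark 2-fold. In both panels most members lie in the upper left quadrant, with Ucp3 farthest out.

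The strain differences on the 2 diets come from separate pairs of arrays, as do the diet differences in the 2 strains. Over the 31 members, the strain difference on Western diet and that on chow had a Spearman rho of -0.65 and a Pearson r of -0.70. Over all 11715 genes these were -0.15 and -0.15. For the diet differences in Ath29 and B6 mice, the members gave a rho of -0.62 and an r of -0.60, and all genes -0.23 and -0.19. The points are genes of the same arrays and not independent, so these values are descriptions. They say that members with a larger gap on chow tended to have a larger opposite gap on Western diet. There were exceptions, such as Plin5, at 1.58 on chow and -0.63 on Western diet, and Etfa, at 0.40 and -1.11.

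The carnitine shuttle carries activated fatty acids into mitochondria. Cpt2, the inner membrane carnitine palmitoyltransferase that hands the acyl group back to coenzyme A, read 690.0 in Ath29 Western, 893 in Ath29 chow, 1299 in B6 Western and 438 in B6 chow. It was 2.97-fold higher on Western diet than on chow in B6 mice and 2.04-fold higher in Ath29 than in B6 mice on chow. The shuttle's carrier, Slc25a20, read 4149.5 in Ath29 Western, 4994 in Ath29 chow, 6140.0 in B6 Western and 3876 in B6 chow. Its second probe set, a dimmer one, read 538, 773, 1323 and 485 on the same arrays, and gave a log2 difference of 1.45 for Western minus chow in B6 mice, where the brighter one gave 0.66. Crat, carnitine acetyltransferase, followed the common order with 164 in Ath29 Western, 231 in Ath29 chow, 245 in B6 Western and 141 in B6 chow.

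Cpt1a stood apart from the rest of the shuttle. It encodes the outer membrane palmitoyltransferase of liver and many other tissues, the entry step that malonyl-CoA inhibits. Its brightest probe set read 1277 in Ath29 Western, 1307 in Ath29 chow, 1078 in B6 Western and 1377 in B6 chow, so that B6 Western was the lowest array and B6 chow the highest. A second Cpt1a probe set read 1257, 1223, 900.0 and 1220.3 on the same arrays, again with the lowest value in B6 Western but the highest in Ath29 Western. The third read 142, 142, 119.9 and 118, with both Ath29 values above both B6 values. By its brightest probe set, Cpt1a was the sole member with a strain by diet difference above 0, at 0.32. That probe set and the second are of the kind that can bind several transcripts, and the third, which is not, gave -0.02.

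The acyl-CoA dehydrogenases remove the first hydrogens of each round, and each handles a range of chain lengths. By their brightest probe sets, all 4 of them and all 3 genes of the electron transfer chain that serves them followed the common order. Acadvl, for very long chains, read 2484 in Ath29 Western, 3188 in Ath29 chow, 4002 in B6 Western and 1823 in B6 chow. Acadl, for long chains, had 3635 in Ath29 Western, 4568 in Ath29 chow, 5438 in B6 Western and 2892 in B6 chow. Its dimmer probe set read 110.1, 94.7, 103.0 and 48.6 on the same arrays, with Ath29 Western the highest. Acadm, for medium chains, had 3271 in Ath29 Western, 4113 in Ath29 chow, 5135 in B6 Western and 3129.8 in B6 chow. The spread of these 3 enzymes was modest, with Western minus chow in B6 mice at 1.13, 0.91 and 0.71. Acads, for short chains, was read from a dim probe set, with 84.4 in Ath29 Western, 109 in Ath29 chow, 126 in B6 Western and 80.7 in B6 chow.

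Electrons from these enzymes pass through the flavoprotein ETF, made of Etfa and Etfb, to the membrane oxidoreductase Etfdh and on to ubiquinone. Etfdh had the widest spread of the 7 genes, with 319 in Ath29 Western, 442 in Ath29 chow, 787 in B6 Western and 255 in B6 chow. It was 2.46-fold lower in Ath29 than in B6 mice on Western diet and 3.08-fold higher on Western diet than on chow in B6 mice. Etfa read 1200.3 in Ath29 Western, 1326 in Ath29 chow, 2587 in B6 Western and 1008 in B6 chow, so the B6 Western array stood well above the other 3. Etfb was more evenly spaced, with 1519 in Ath29 Western, 1991 in Ath29 chow, 2465 in B6 Western and 1231 in B6 chow. Its diet difference in B6 mice lay at the 2-fold line.

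Hydration, the second dehydrogenation and thiolysis complete a round. Echs1, the short-chain enoyl-CoA hydratase, read 453 in Ath29 Western, 630.1 in Ath29 chow, 1005 in B6 Western and 351 in B6 chow and was 2.22-fold lower in Ath29 than in B6 mice on Western diet. Acaa2, the mitochondrial thiolase, had 2345 in Ath29 Western, 3007 in Ath29 chow, 3331 in B6 Western and 1778 in B6 chow. Hadha and Hadhb encode the subunits of the trifunctional protein, which runs these steps on long chains. Hadha read 154 in Ath29 Western, 166 in Ath29 chow, 218 in B6 Western and 117 in B6 chow. Hadhb, by its brightest probe set, read 8251 in Ath29 Western, 9166 in Ath29 chow, 8932 in B6 Western and 6929 in B6 chow, with Ath29 chow slightly above B6 Western. A dimmer probe set read 3601, 4169, 4758 and 3130 on the same arrays, in the common order. Another, dimmer still, read 85.3, 113, 126 and 108, with B6 Western the highest but Ath29 Western the lowest.

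Hadh, the dehydrogenase for medium and short chains, shows how far the result can depend on the probe set. Its brightest probe set read 11628 in Ath29 Western, 11818 in Ath29 chow, 12004 in B6 Western and 11229 in B6 chow, close to the highest intensity deposited for any probe set, 13421, and its 4 differences lay between -0.05 and 0.10. The dimmest of its 3 probe sets read 856, 774, 2056 and 1051 and gave -1.26 for Ath29 minus B6 on Western diet and 0.97 for Western minus chow in B6 mice. That probe set had B6 Western highest, as in most members, but Ath29 chow lowest. Whether the brightest probe sets were near saturation was not tested.

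**Figure D3:**
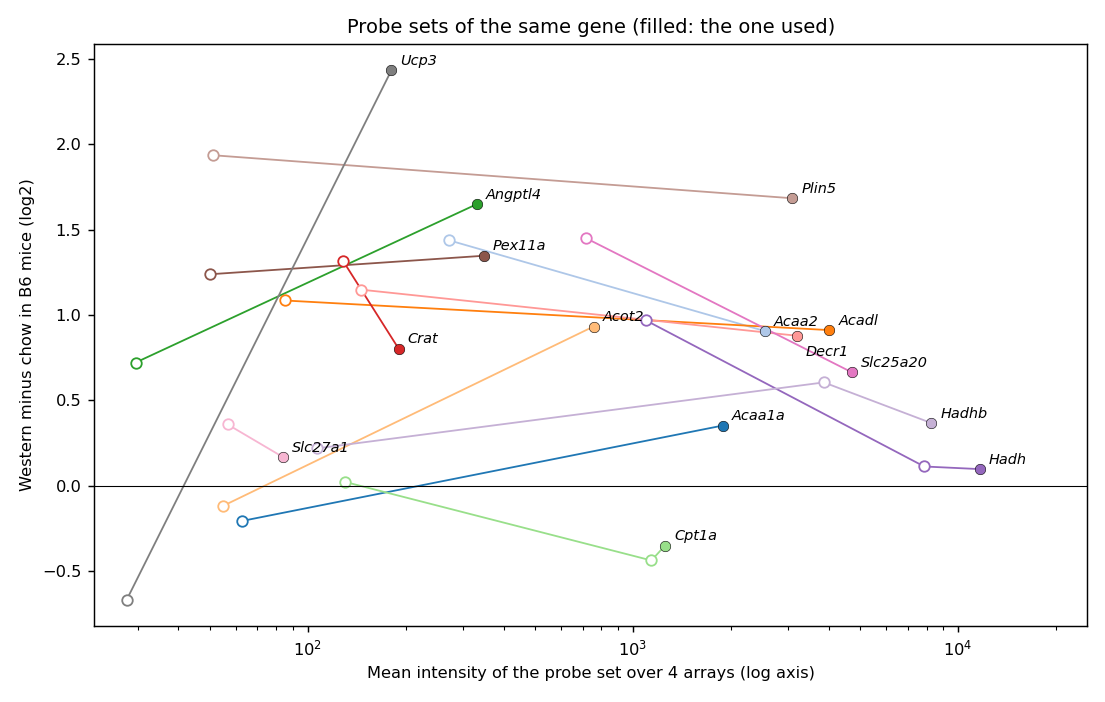
Log2 difference of Western minus chow in B6 mice (y) against the mean intensity over the 4 arrays (x, log axis) for every probe set above the filter of the 15 members with more than 1; lines join probe sets of the same gene and filled points are those used. Slc25a20, Hadh, Acaa2, Decr1 and Crat have a larger difference in a dimmer probe set, while the dim probe sets of Ucp3, Acot2 and Angptl4 have a smaller or opposite one.

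In all, 15 members had more than 1 probe set above the filter, with 18 further probe sets. The further probe sets had the sign of the brightest in 16 of 18 cases for Ath29 minus B6 on Western diet, in 15 on chow, in 11 for Western minus chow in Ath29 mice and in 14 in B6 mice. Their absolute difference was the larger in 11 of 18 cases for diet in B6 mice and in 13 for strain on chow.

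Unsaturated chains need auxiliary enzymes that move or reduce double bonds. Eci1, a mitochondrial enoyl-CoA isomerase, read 1415 in Ath29 Western, 2080.1 in Ath29 chow, 2619 in B6 Western and 944 in B6 chow and was 2.2-fold higher in Ath29 than in B6 mice on chow. Decr1, the mitochondrial dienoyl-CoA reductase, read 2747 in Ath29 Western, 3698 in Ath29 chow, 4333 in B6 Western and 2358 in B6 chow. Eci2, a second isomerase, had a narrower range, with 1575 in Ath29 Western, 1878 in Ath29 chow, 2163 in B6 Western and 1489.7 in B6 chow. All 3 followed the common order.

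The peroxisomal genes held some of the widest differences. Ehhadh, the bifunctional enzyme of peroxisomal oxidation and a well-known PPAR alpha target in rodent liver, read 313 in Ath29 Western, 589 in Ath29 chow, 864 in B6 Western and 188 in B6 chow. On Western diet it was 2.76-fold lower in Ath29 than in B6 mice, and on chow 3.14-fold higher. Acaa1b, a peroxisomal thiolase, read 884 in Ath29 Western, 1485 in Ath29 chow, 2518 in B6 Western and 640.5 in B6 chow. It was 2.85-fold lower in Ath29 than in B6 mice on Western diet and 2.32-fold higher on chow. Pex11a, a peroxisome membrane protein that promotes division of the organelle, read 342 in Ath29 Western, 399 in Ath29 chow, 520.4 in B6 Western and 205 in B6 chow. Its dimmer probe set read 45.0, 43.5, 87.2 and 36.9, with B6 Western above the other 3 arrays, which lay close together.

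Acaa1a, the closely related thiolase gene, had a different pattern from Acaa1b. It read 1626 in Ath29 Western, 1686 in Ath29 chow, 2435 in B6 Western and 1909 in B6 chow, so both Ath29 arrays lay below both B6 arrays. Its second, dim probe set read 58.0, 50.9, 67.7 and 78.1 and again put both Ath29 values below both B6 values. Both Acaa1a probe sets are of the kind that can bind several transcripts. Both thiolase genes lie on chromosome 9, the chromosome of the Ath29 locus, as do Slc25a20 and Etfa. Ath29 minus B6 had opposite signs on the 2 diets for Acaa1b, Slc25a20 and Etfa, while Acaa1a gave -0.58 on Western diet and -0.18 on chow.

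The remaining members are PPAR targets around the pathway: uptake, binding and storage of fatty acids, uncoupling, and the switch from glucose to fat. Ucp3, a mitochondrial carrier of muscle and brown fat, had the widest spread of all members, with 118 in Ath29 Western, 301 in Ath29 chow, 402 in B6 Western and 74.5 in B6 chow. It was 3.4-fold lower in Ath29 than in B6 mice on Western diet and 4.03-fold higher on chow. Between diets, Ucp3 on Western diet was 2.54-fold lower than on chow in Ath29 mice and 5.4-fold higher than on chow in B6 mice. A second Ucp3 probe set read 25.3, 45.2, 18.1 and 28.7, values around the filter level of 27.5, and did not show this pattern. Ucp3, Ehhadh and Acaa1b passed 2-fold in both strain comparisons, with Ath29 below B6 on Western diet and above it on chow, 3 of 31 against 0.572% of all genes.

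Angptl4, a secreted inhibitor of lipoprotein lipase, read 285 in Ath29 Western, 429 in Ath29 chow, 557 in B6 Western and 178 in B6 chow. Plin5, which coats lipid droplets in oxidative tissue and ties them to mitochondria, read 3033 in Ath29 Western, 4367 in Ath29 chow, 4700.5 in B6 Western and 1463 in B6 chow. Its dimmer probe set gave nearly the same differences, -0.60 on Western diet and 1.58 on chow for Ath29 minus B6, where the brighter gave -0.63 and 1.58. Plin2, the droplet protein found in most cells and in lipid-loaded macrophages, had a different middle order. It read 3283 in Ath29 Western, 3258 in Ath29 chow, 3977 in B6 Western and 2235 in B6 chow, so the 2 Ath29 arrays were nearly equal.

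Fabp3, the fatty acid binding protein of heart and muscle, read 351 in Ath29 Western, 292 in Ath29 chow, 866 in B6 Western and 182 in B6 chow. It was 4.76-fold higher on Western diet than on chow in B6 mice, and of the members it had the highest diet difference in Ath29 mice, 0.26. Acot2, a mitochondrial acyl-CoA thioesterase, read 573 in Ath29 Western, 766 in Ath29 chow, 1194 in B6 Western and 626 in B6 chow, with B6 Western alone well above the rest. Its dimmer probe set read 49.3, 69.1, 49.7 and 54.0 on the same arrays, with Ath29 chow the highest. Pdk4, the kinase that shuts off pyruvate dehydrogenase when fat is burned, read 4030.5 in Ath29 Western, 5172 in Ath29 chow, 5604 in B6 Western and 3519 in B6 chow. Slc27a1, a fatty acid transport protein of the plasma membrane, read 85.0 in Ath29 Western, 82.5 in Ath29 chow, 89.3 in B6 Western and 79.6 in B6 chow, with Hadh the narrowest range of the members. Its dimmer probe set read 47.6, 68.4, 63.8 and 49.8 on the same arrays, with a strain by diet difference of -0.88.

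The receptors and their partners were read from a list of 12 genes, of which 10 were compared. Ppara, the PPAR form that drives fatty acid oxidation, read 67.3 in Ath29 Western, 108 in Ath29 chow, 157 in B6 Western and 31.2 in B6 chow. Pparg, the form that drives fat cell differentiation, read 53.8 in Ath29 Western, 96.0 in Ath29 chow, 146 in B6 Western and 45.8 in B6 chow. Both followed the common order of the members. Of the 10 genes 4 did so, and B6 Western was the highest array in 4. The coactivator Ppargc1a read 163 in Ath29 Western, 339 in Ath29 chow, 315 in B6 Western and 141 in B6 chow and its relative Ppargc1b 138 in Ath29 Western, 248 in Ath29 chow, 299.6 in B6 Western and 92.3 in B6 chow. Rxrg, an RXR form, read 43.3 in Ath29 Western, 75.5 in Ath29 chow, 81.2 in B6 Western and 31.1 in B6 chow. Esrra, a nuclear receptor that works with Ppargc1a, differed least of the 6 genes named, with -0.25 on Western diet and 0.78 on chow for Ath29 minus B6. At least 2-fold lower in Ath29 than in B6 mice on Western diet were 3 of the 10 (2.03% of all genes), and 5 were at least 2-fold higher on chow (2.17%). In Ath29 mice 1, Ppargc1a, was at least 2-fold lower on Western diet (0.854%), and in B6 mice 5 were at least 2-fold higher on Western diet (4.11%). Medians of the list were -0.58 on Western diet and 0.92 on chow for strain, and -0.54 in Ath29 and 0.90 in B6 mice for diet. Against the members' direction, 3 of the 10 were higher in Ath29 than in B6 mice on Western diet, Rxra the farthest at 0.38. On chow 2 were lower in Ath29 mice, and in B6 mice 2 were lower on Western diet. Nrip1 was the farthest in both, at -0.32 and -0.22.

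A second list held 29 other genes of fatty acid oxidation, 22 of them compared. Its medians were in the same directions as those of the members and smaller in 4 of 4 comparisons, with -0.50 on Western diet and 0.15 on chow for strain, and -0.18 in Ath29 and 0.51 in B6 mice for diet. Single genes went the other way. For strain these were 3 of the 22 on Western diet (Acad10 the farthest, 0.41) and 6 on chow (Crot, -0.44). For diet they were 6 in Ath29 mice (Abcd2, 0.34) and 4 in B6 mice (Acsl4, -0.19). The common order was seen in 7 of 22. The widest was Acot1, a cytosolic acyl-CoA thioesterase and near relative of Acot2, with 340.4 in Ath29 Western, 732 in Ath29 chow, 948 in B6 Western and 379 in B6 chow. Phyh, which starts peroxisomal alpha oxidation, was at least 2-fold higher on Western diet in B6 mice (1.20), as was Ech1, a dienoyl-CoA isomerase (1.10). Slc22a5, the carnitine importer, gave 0.76, Hsd17b10, a mitochondrial dehydrogenase, 0.89 and the thioesterase Acot13 0.80 in the same comparison.

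Of 19 other PPAR targets 12 were compared, with medians of -0.59 on Western diet and 0.62 on chow for strain, and -0.22 in Ath29 and 0.89 in B6 mice for diet. Some went against the members' direction. On Western diet 3 of the 12 were higher in Ath29 than in B6 mice, Me1 the farthest at 0.59. In B6 mice 2 were lower on Western diet than on chow, Me1 the farthest at -0.18. In Ath29 mice 1, Hilpda, was higher on Western diet, at 0.13. Cd36, the fatty acid uptake receptor, read 1386 in Ath29 Western, 1985 in Ath29 chow, 2741 in B6 Western and 929.9 in B6 chow. Pck1, which makes glycerol phosphate precursors in fat, read 149 in Ath29 Western, 209 in Ath29 chow, 361 in B6 Western and 87.3 in B6 chow. Cidea and Cidec, lipid droplet proteins of fat, were 3.51-fold and 2.66-fold higher on Western diet than on chow in B6 mice. Gpd1, the cytosolic glycerol phosphate dehydrogenase, was 1.92-fold higher there. Aqp7, the glycerol channel of fat cells, read 46.0 in Ath29 Western, 73.1 in Ath29 chow, 110.4 in B6 Western and 17.1 in B6 chow, with the B6 chow value below the filter level of 27.5. Several of these genes also serve as fat markers: Cidea and Ppargc1a are in the brown fat list, and Aqp7, Cidec, Fabp4 and Plin4 in the white fat list.

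Most markers of fat moved with the members. Of 13 brown fat genes 11 were compared, with a summed intensity of 14638 in Ath29 Western, 18504 in Ath29 chow, 23288 in B6 Western and 11949 in B6 chow, the common order of the members. Ucp1, the uncoupling protein that defines brown fat, read 3756 in Ath29 Western, 4465 in Ath29 chow, 5452 in B6 Western and 3525 in B6 chow. Elovl3, a fatty acid elongase of brown fat, spread further, with 144 in Ath29 Western, 411 in Ath29 chow, 679 in B6 Western and 83.9 in B6 chow. Cox7a1 and Otop1, also brown fat genes, were 3.82-fold and 3.8-fold higher on Western diet than on chow in B6 mice. Of 14 white fat genes 11 were compared, and their sums were 32221, 36449, 39589 and 30196 in the same sequence of arrays. Adipoq, the adipocyte hormone adiponectin, read 3833 in Ath29 Western, 4702 in Ath29 chow, 5358 in B6 Western and 3143 in B6 chow, while leptin (Lep) lay below the filter on all arrays, at most 15.0. The common order was seen in 7 of 11 brown fat and 6 of 11 white fat genes. Among brown fat genes, Prdm16 went the other way for strain on Western diet (0.13) and for diet in B6 mice (-0.26). On chow 2 of the 11 brown fat genes were lower in Ath29 than in B6 mice, Zic1 the farthest at -0.25. White fat exceptions were Plin4, at 0.04 for strain on Western diet and -0.07 for diet in B6 mice, and Retn, at -0.06 for strain on chow. Brown fat medians were -0.95 on Western diet and 1.06 on chow for strain, and -0.38 in Ath29 and 1.24 in B6 mice for diet, each farther from 0 than the median of the members. White fat medians were -0.65 on Western diet and 0.44 on chow for strain, and -0.29 in Ath29 and 0.77 in B6 mice for diet, nearer 0 than those of the members in 3 of 4 comparisons. The part of fat tissue in the members' differences was not tested.

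Most heart muscle markers stood out on the B6 Western array alone. Of 15 heart genes 13 were compared, with summed intensities of 949 in Ath29 Western, 1067 in Ath29 chow, 16364 in B6 Western and 1454 in B6 chow. Nppa and Nppb were not compared. B6 Western was the highest array in 11 of the 13. In B6 mice 2 of the 13 were lower on Western diet than on chow, Myh7 the farthest at -0.25. Myh7 was also the 1 gene higher in Ath29 than in B6 mice on Western diet, at 0.15. Myh6, the atrial and adult ventricular myosin heavy chain, read 30.1 in Ath29 Western, 105 in Ath29 chow, 2639 in B6 Western and 121 in B6 chow. Myl7, the atrial myosin light chain, read 9.6 in Ath29 Western, 75.1 in Ath29 chow, 2038 in B6 Western and 52.3 in B6 chow, the first of these at the floor set on low values. Of 13 skeletal muscle genes 5 were compared, and Myh1, a fast fibre myosin, read 9.6 in Ath29 Western, 9.6 in Ath29 chow, 370.1 in B6 Western and 179 in B6 chow, with both Ath29 values at the floor. B6 Western was the highest array in 5 of the 5. On chow Myh1 was the lowest of them for Ath29 minus B6, at -4.22, and the list did not share this gap. There 3 of the 5 were below 0 and 2 above, with Tnni2 at -0.08, Mylpf at 0.12 and Pvalb at 0.91. The common order of the members was seen in 0 of 13 heart and 0 of 5 skeletal muscle genes. Several members are abundant in heart, Fabp3 among them, so the members were also read without the B6 Western array. On the other 3 arrays, 25 of 31 members had the order Ath29 chow above Ath29 Western above B6 chow, against 17.6% of all genes; 24 of the 25 hold it by construction, because the common order of 4 arrays contains it. The strain difference on chow and the diet difference in Ath29 mice, both given above, do not use that array. The part of heart tissue in the values of B6 Western was not tested.

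**Figure D4:**
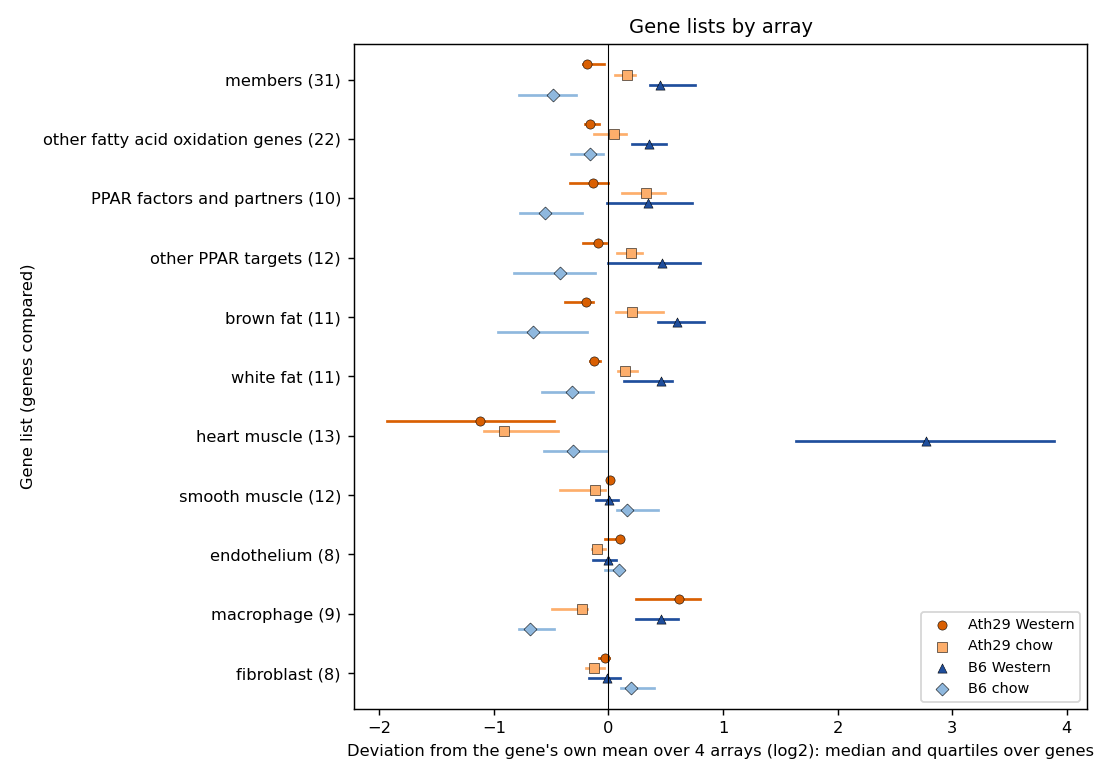
Deviation of each gene from its own mean over the 4 arrays (log2), with the median (point) and quartiles (line) over the genes of each list, for Ath29 Western, Ath29 chow, B6 Western and B6 chow. The members sit at -0.18, 0.16, 0.45 and -0.48, brown fat at -0.19, 0.20, 0.59 and -0.66, and heart muscle is far above its mean in B6 Western only.

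Other features of the arrays bear on these values. Smooth muscle genes, all 12 of them compared, had median log2 intensities from 10.43 to 11.18, highest in B6 chow and lowest in Ath29 chow. All 12 were lower in Ath29 than in B6 mice on chow, opposite to most members, with a median of -0.28, and 3 were at least 2-fold lower (1.94% of all genes): Tpm1, Myh11 and Myl9, genes of the contractile apparatus, by 2.64-fold, 2.46-fold and 2.39-fold. On Western diet 6 of 12 were lower, with a median of -0.01. Western minus chow was above 0 in 11 of 12 in Ath29 mice (median 0.15) and below 0 in 11 of 12 in B6 mice (median -0.24). Acta2, smooth muscle actin, lay between 10395 and 11269. Fibroblast genes had similar signs: 8 of 8 were lower in Ath29 than in B6 mice on chow (median -0.24). In B6 mice 7 of the 8 were lower on Western diet than on chow (median -0.24). Of 8 endothelial genes compared, 5 were lower in Ath29 mice on chow (median -0.21). On Western diet 6 of these were lower than on chow in B6 mice (median -0.13). The part of smooth muscle, fibroblasts and endothelium in the members' differences was not tested. The extract protocol names liver where the source label names aorta. Of 10 hepatocyte genes 5 were compared. Albumin (Alb) lay between 33.7 and 64.0, and Apoa1, Ttr, Serpina1a, Fgb and Cps1 were below the filter. The exception was Cyp2e1, a cytochrome of liver that fat also expresses, with 2866 in Ath29 Western, 4560.0 in Ath29 chow, 4852 in B6 Western and 2541 in B6 chow, the common order of the members, and its part in the result was not tested. Macrophage genes, 9 of 12 compared, had summed intensities of 9025 in Ath29 Western, 5331 in Ath29 chow, 9196 in B6 Western and 4504 in B6 chow, higher on Western diet in both strains and unlike the order of the members. As a sign of RNA integrity, actin signal at the 3' end over that in the middle of the transcript was 7.62 in Ath29 Western, 10.2 in Ath29 chow, 5.63 in B6 Western and 5.10 in B6 chow. The same ratio for Gapdh was 10.6 in Ath29 Western, 8.87 in Ath29 chow, 9.54 in B6 Western and 9.23 in B6 chow. Against the 5' end, the actin ratio was 28.5 in Ath29 Western, 31.5 in Ath29 chow, 25.4 in B6 Western and 24.4 in B6 chow. For Gapdh it was 28.0 in Ath29 Western, 22.8 in Ath29 chow, 29.0 in B6 Western and 31.3 in B6 chow. Every array had far more signal at the 3' end than at the 5' end. Ath29 chow was thus the highest array by actin and the lowest by Gapdh, and the part of RNA integrity in the results was not tested.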

How the data were processed

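The data are 1 table of intensity values that the authors deposited for 4 Affymetrix mouse arrays, 1 per group. The values are on a linear scale, read so from the values themselves. The software, like any background correction or normalization behind them, was not given in the sources used here, and no probe-level data were analysed.

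Gene names came from GEO's platform annotation, brought up to date with RefSeq's GRCm38.p6 gene table. Among 45101 probe sets, 34958 had 1 gene symbol, 932 several and were left unnamed. A factor per array (0.990 to 1.02) set the array medians equal, low values were floored at percentile 25 of all values (9.60), and log2 followed. Probe sets with a mean above the median of all means (27.5 on the linear scale) were kept, and a gene was read from its brightest probe set. Genes past 2-fold were counted. limma 3.58.1 gave the additive fit, with Benjamini-Hochberg adjustment over all genes. The fit was tried on simulated data with a strain effect and no strain by diet difference, unlike the members. That trial does not cover them. Python 3.11.15 and R 4.3.3 were used.

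Every member is named. Of other lists, the rule took the genes with the largest differences (up to 6 a list, up to 4 of a marker list) and the first 2 markers, and values are printed where a result turns on them. The length of sequence around hexamers was chosen after seeing the data. Members, lists and rules were chosen with earlier results of these data known. The alternatives were other scalings, filters, floors, probe set choices and folds. The number of arrays limits the precision.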

Additional observations from a re-analysis of the deposited data

Results flagged for a closer look

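In all 31 members the strain difference or the diet difference had opposite signs between the groups: Western minus chow differed in sign between Ath29 and B6 mice, or Ath29 minus B6 differed in sign between the diets. The rule takes a change of sign of any size, and the share of all genes that meet it was not counted. The 31 are therefore not read as a trait of the members. With 1 array per group these differences of differences were not tested. The value given is the log2 diet difference in Ath29 mice minus that in B6 mice, and 30 of the 31 are below 0, against 4821 of all 11715 genes compared.

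Among shuttle genes, Cpt2 had -1.94, Crat -1.29 and Slc25a20 -0.93, while Cpt1a alone was positive at 0.32. The acyl-CoA dehydrogenases lay close together, with Acadvl at -1.49, Acadl at -1.24, Acadm at -1.04 and Acads at -1.003. Of the electron transfer genes, Etfdh had -2.09, Etfa -1.50 and Etfb -1.39. For the later steps of the round, Echs1 had -1.99, Acaa2 -1.26, Hadha -1.01 and Hadhb -0.52, and the near-invariant bright probe set of Hadh gave -0.12. The auxiliary enzymes gave -2.03 for Eci1, -1.31 for Decr1 and -0.79 for Eci2.

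The peroxisomal genes included large values, -3.12 for Ehhadh, -2.72 for Acaa1b and -1.57 for Pex11a, against -0.40 for Acaa1a. The other PPAR targets were led by Ucp3 at -3.78, followed by Angptl4 at -2.24, Plin5 at -2.21, Fabp3 at -1.99 and Acot2 at -1.35. Pdk4 had -1.03, Plin2 -0.82 and Slc27a1, by its brighter probe set, -0.12.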

How the results depend on the processing

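Under the 10 other ways of processing the table, the member medians kept their sign and lay from -0.69 to -0.57 for Ath29 minus B6 on Western diet and from 0.65 to 0.74 on chow. For Western minus chow they lay from -0.41 to -0.33 in Ath29 mice and from 0.89 to 1.08 in B6 mice, and for the strain by diet difference from -1.40 to -1.19. The common order held in 19 to 25 members, lowest with each gene's dimmest passing probe set, an alternative chosen after seeing the data, as was leaving out the B6 Western array. At 1.5-fold, 17 members were lower in Ath29 mice on Western diet (7.89% of all genes), 17 higher on chow (7.28%), 4 lower on Western diet in Ath29 mice (4.35%) and 25 higher on Western diet in B6 mice (9.95%). With the dimmest passing probe sets, 0 members were at least 2-fold lower on Western diet in Ath29 mice. The additive fit called 2 genes for strain with the stricter filter, 1 with a floor at 1, 1 without the probe sets prone to binding several transcripts and 7 with the dimmest probe sets, and for diet 2 and 5 under the last 2 of these. The cause was not tested. The other 158 values, medians and counts, kept their sign and stayed within 1.5 times. No paired analysis was possible because the groups hold 1 array each and the labels give no replicate numbers. Signals under 27.5 are not told apart from background here, which limits the dim probe sets.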
